A study of Mus musculus with 384 samples.

Results

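The 40 genes described here are cell cycle genes, measured in 326 single cells sorted from the spinal cords of Optn knockout mice. They are 14 DNA replication genes, 22 mitotic genes and 4 genes that dividing cells use heavily but that other cells transcribe too (Stmn1, Hmgb2, Tuba1b and Tubb5). They were chosen by name from the 23420 genes of the table, by what they are known to do and with earlier results of these data known, and all 40 were found. Every cell has the genotype Optn KO, and no cell of another genotype was analysed here, so nothing below compares the knockout with a control. Per the labels' protocols, antibodies to CX3CR1, CD11b and CD45 marked the cells, which were sorted one by one and made into libraries by SmartSeq2, which reads whole transcripts of single cells. The labels name 2 replicates, KO-1 on plates 1 and 2 and KO-2 on plates 3 and 4. They do not say whether these are separate mice, so the spread between them may be technical, and the age of the mice is not given in the sources used here.

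A dividing cell copies its DNA in S phase and separates the copies in mitosis. Mcm2 to Mcm7 encode the ring-shaped helicase that opens DNA, Cdc6 and Cdt1 load that ring, Gmnn (geminin) blocks loading, and Pcna encodes the clamp that holds the polymerases. Rrm1, Rrm2, Tyms and Tk1 make the building blocks of DNA. Later the kinase Cdk1 with cyclins Ccna2, Ccnb1 and Ccnb2 starts mitosis, centromere proteins and motors (Cenpa, Cenpe, Cenpf, Kif11, Kif23) move the chromosomes, and Cdc20 and Ube2c help the anaphase-promoting complex to destroy the cyclins. Neutrophils are made in bone marrow. Their precursors divide while they make granules in a fixed order, first Elane, Mpo and Prtn3, then Fcnb (ficolin B), Camp (cathelicidin) and Ltf (lactoferrin). Mature neutrophils, which transcribe Il1b, Cxcr2 and Retnlg, no longer divide.

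The values are TPM, transcript abundance scaled to 1000000 per cell, so sequencing depth is not kept and the number of genes above 0 in a cell (675 to 5707, median 1681) stands in for it. The series title calls the sorted cells microglia, but the defining microglial genes P2ry12, Tmem119, Sall1 and C1qa were found above 0 in few of the 326 cells: P2ry12 in 2, Tmem119 in 3, C1qa in 1 and Sall1 in 0. Following the rule for these genes, 286 cells with at least 10000 TPM of S100a8 plus S100a9 (calprotectin, the main cytosolic protein of neutrophils) are called neutrophils, 131 in replicate 1 and 155 in replicate 2. The other 40 cells (23 and 17) are called other cells. The lowest S100 sum of a neutrophil was 12512.4 TPM and the highest of an other cell 4019.2 TPM. The targeted gene Optn was listed at 0 in all 326 cells, which allows a share of up to 0.920%. In such cells fewer transcripts of a gene and a missed capture of the same transcripts cannot be told apart, and a value of 0 is called listed at 0.

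Promoters of mitotic genes are known for the cell cycle homology region (CHR; its letters are TTTGAA, with the variant form TTCGAA) and the CCAAT box, which bind the MuvB complexes and NF-Y, and promoters of replication genes for sites of the E2F factors. RefSeq promoter sequences (GRCm38.p6) were at hand for 34 of the 40 genes. In the 250 bases before the start, on both strands, a CHR was found in 9 of 19 mitotic promoters (47.4%), in 2 of 12 replication promoters (16.7%) and in 19.6% of all 27025 genes of the promoter table. A CCAAT box was found in 17 of 19 mitotic (89.5%), 8 of 12 replication (66.7%) and 37.5% of all promoters. For the E2F factors the letters searched were TTTCCCG. Searched likewise were the letters TTTGGCG. The remaining forms searched were TTTCGCG as well as TTTGCCG. At least 1 of these forms was found in 4 of 12 replication (33.3%), 3 of 19 mitotic (15.8%) and 6.34% of all promoters. A CHR and a CCAAT box together were found in 9 mitotic promoters (47.4%), 2 replication promoters (16.7%) and 7.93% of all. TTCGAA is its own reverse complement, and E2F matches can overlap each other. A match is a description of the letters and not a bound site.

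The 120 bases before the start are shown for 3 mitotic genes that passed in the comparisons by Fcnb, Ltf and Camp below (Top2a, Cdc20 and Ccnb2), for the proliferation marker Mki67, for Kif23, which did not pass, and for 3 replication genes (Mcm5, Rrm1 and Mcm6). Capitals mark the motifs just named; on the reverse strand the CCAAT box reads ATTGG and the CHR TTCAAA. They lie at chr11:99024190-99024309 (minus strand) for Top2a, chr4:118437344-118437463 (minus) for Cdc20, chr9:70421555-70421674 (minus) for Ccnb2, chr7:135716380-135716499 (minus) for Mki67, chr9:61946800-61946919 (minus) for Kif23, chr8:75109389-75109508 (plus) for Mcm5, chr7:102441575-102441694 (plus) for Rrm1 and chr1:128359706-128359825 (minus) for Mcm6.
Top2a: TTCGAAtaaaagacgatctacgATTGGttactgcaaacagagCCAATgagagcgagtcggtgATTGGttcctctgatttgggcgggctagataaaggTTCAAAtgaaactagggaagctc
Cdc20: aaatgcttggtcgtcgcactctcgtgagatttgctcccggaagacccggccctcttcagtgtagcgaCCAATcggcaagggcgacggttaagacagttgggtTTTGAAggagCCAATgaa
Ccnb2: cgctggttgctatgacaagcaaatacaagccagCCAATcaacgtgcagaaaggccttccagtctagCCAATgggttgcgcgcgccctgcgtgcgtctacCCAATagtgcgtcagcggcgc
Mki67: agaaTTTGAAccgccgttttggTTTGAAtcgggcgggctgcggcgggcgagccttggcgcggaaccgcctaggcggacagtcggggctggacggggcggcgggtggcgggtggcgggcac
Kif23: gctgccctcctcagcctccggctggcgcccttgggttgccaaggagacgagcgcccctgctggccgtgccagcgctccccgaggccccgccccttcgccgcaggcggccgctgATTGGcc
Mcm5: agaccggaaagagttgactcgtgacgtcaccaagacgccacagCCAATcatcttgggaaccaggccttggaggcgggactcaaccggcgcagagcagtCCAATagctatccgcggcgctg
Rrm1: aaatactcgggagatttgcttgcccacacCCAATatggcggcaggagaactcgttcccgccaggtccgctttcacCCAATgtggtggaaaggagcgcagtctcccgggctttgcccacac
Mcm6: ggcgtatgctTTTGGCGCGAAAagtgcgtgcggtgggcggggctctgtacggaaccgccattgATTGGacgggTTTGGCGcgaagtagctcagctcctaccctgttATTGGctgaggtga
Top2a holds 3 CCAAT boxes between 2 CHR elements, and Ccnb2 holds 3 CCAAT boxes in this window with no CHR. Mki67 holds 2 CHR elements close together and no CCAAT box in these 120 bases. Kif23 holds 1 CCAAT box, 7 bases before the start. Mcm6 holds E2F sequences 110, 105 and 47 bases before the start and CCAAT boxes at 57 and 14.

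A small group of neutrophils had many of the cell cycle genes above 0, and the rest had few. Of the 36 replication and mitotic genes, 17 neutrophils had 12 to 36 above 0 (median 23), and the other 269 had 0 to 7 (median 2). No neutrophil had 8 to 11. Cells with at least 9 of the 36 are called cycle-rich below. They were 17 of 286 neutrophils (5.94%, exact 95% interval 3.50% to 9.35%), 9 of 131 in replicate 1 (6.87%) and 8 of 155 in replicate 2 (5.16%). These intervals cover counting error only. Cycle-rich neutrophils had a median of 3253 genes above 0 against 1563 in the other neutrophils, and the part of this difference in the counts of cell cycle genes was not tested.

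Most neutrophils with 4 or more replication genes above 0 had 4 or more mitotic genes too. The reverse differed between replicates and rests mostly on cells with few mitotic genes above 0. With a list counted as on at 4 or more of its genes above 0, both lists were on in 15 neutrophils (9 in replicate 1 and 6 in replicate 2), the mitotic list alone in 12 (4 and 8) and the replication list alone in 1 (1 and 0). The share with both on was 6.87% in replicate 1 and 3.87% in replicate 2 (mean 5.37% ± 2.12, SD, n = 2). Among the 12 cells with the mitotic list alone were 2 cycle-rich cells, with 13 and 9 mitotic genes beside 1 and 3 replication genes. The rest of the 12 had at most 6 mitotic genes above 0. Outside the cycle-rich cells several mitotic genes were often above 0 at very low values (below), so these cells are not read as a phase. The 17 cycle-rich neutrophils had 1 to 14 replication genes above 0 (median 6) and 5 to 22 mitotic genes (median 18). The replication-weighted end was held by 1 cell with 14 replication and 6 mitotic genes and 1 with 12 and 5, both in replicate 2. At the mitotic end, 6 cells had 17 to 21 mitotic genes with only 4 or 5 replication genes. A single cell in replicate 1 had all 36.

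**Figure D1:**
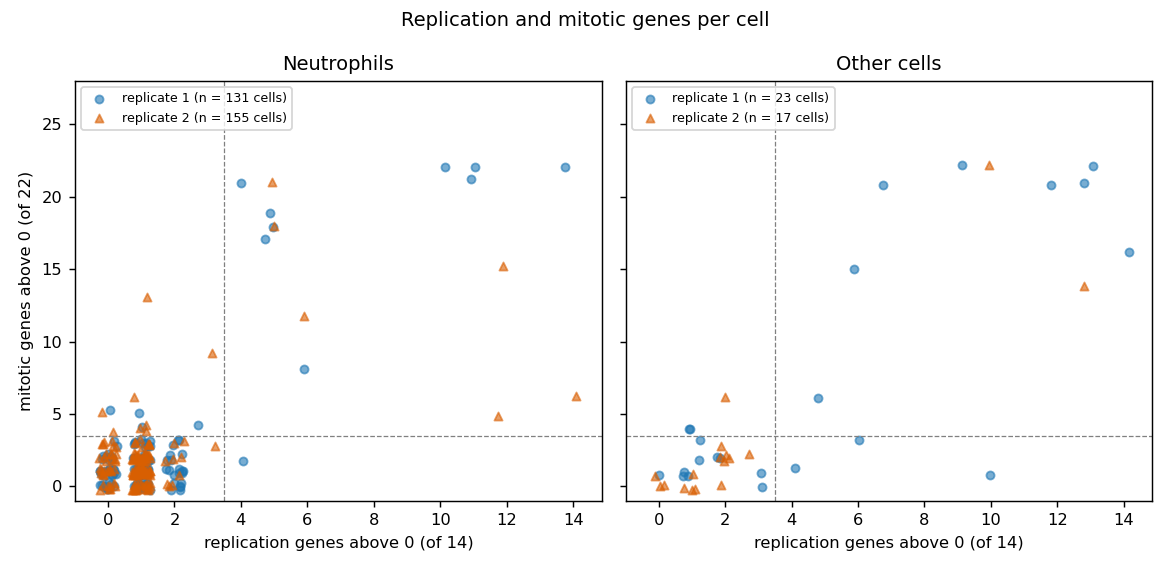
Number of replication genes (x axis, of 14) and mitotic genes (y axis, of 22) above 0 in each cell, with a small random offset so that points do not hide each other; circles are replicate 1, triangles replicate 2, and dashed lines mark 4 genes. Most neutrophils (left) sit in the lower left corner, 17 stand away from it, and 12 of the 40 other cells (right) do so too.

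Among the replication genes other than Tyms, Rrm1 and Rrm2 were the most often found in the 17 cycle-rich neutrophils. These subunits of ribonucleotide reductase were each above 0 in 13 of 17, and their mean levels were 190 and 614 TPM. In the other 269 neutrophils Rrm1 was above 0 in 3 cells and Rrm2 in 1. The helicase genes Mcm5 and Mcm7 were above 0 in 12 of 17 cells each, Mcm4 in 11, and Mcm2, Mcm3 and Mcm6 in 6 each. The clamp gene Pcna was above 0 in 10 of 17 cells (mean 106 TPM) and in 9 of 269 others. The loading factors were found less often, Cdt1 in 7 cells and Cdc6 in 3. These values describe the cells that the same genes chose, so no test goes with them.

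Tyms (thymidylate synthase) did not behave like the other replication genes. It was above 0 in 192 of 286 neutrophils, 15 of the 17 cycle-rich cells and 177 of the 269 others. In the 177 cells its median was 2.09 TPM and its highest value 24.0 TPM, and only 13 reached 10 TPM. Its median phi with the other replication genes was 0.041, the lowest of the 14, where phi is the correlation of the above-0 calls of a pair of genes over the 286 neutrophils.

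Among the mitotic genes 5 were found in cycle-rich neutrophils only. Aurka, Plk1, Bub1, Bub1b and Cenpe, which serve the spindle and its checkpoint, had 8, 11, 9, 9 and 12 of the 17 cells above 0 and were listed at 0 in all 269 others, which allows a share of up to 1.12%. Ccnb2 (cyclin B2) was above 0 in all 17, at a mean of 514 TPM, and in 7 of the 269 others. Mki67 and Birc5 (survivin) were above 0 in 16 of 17, and Top2a (topoisomerase II alpha), Cdc20, Cenpa and Cenpf in 14 of 17. Ube2c had the highest mean of the mitotic genes in the cycle-rich cells, 1117 TPM, against 0.989 TPM in the others.

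Several mitotic genes were often above 0 at very low values outside the cycle-rich cells. Birc5 was above 0 in 66 of the 269 other neutrophils with a median of 1.09 TPM, Tpx2 in 60 with a median of 1.0 TPM, Ube2c in 41 with a median of 4.87 TPM, and Cenpf in 40 with a highest value of 1.56 TPM. At a limit of 10 TPM these counts fell to 2, 2, 5 and 0 cells.

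Kif23 and Cenpa were the exceptions, with high values in neutrophils that had few other cell cycle genes. Kif23, a motor of the central spindle used in cytokinesis (chr9:61915905-61946774, minus strand), was above 0 in 33 of the 269 other neutrophils at a median of 255 TPM and a highest value of 896 TPM. These were 13 cells of replicate 1 and 20 of replicate 2, with a median of 3 of the 36 genes above 0, Kif23 included. None of the 33 had Fcnb above 0, and their median Ltf and Camp were 1.56 and 0 TPM, against 511 and 3207 TPM in the 236 cells without Kif23. Cenpa, the histone variant of centromeres, was above 0 in 28 of the 269 at a median of 275 TPM, and 1 of the 28 had Fcnb above 0. For comparison, the mean of Kif23 was 68.1 TPM in the cycle-rich neutrophils and 34.2 TPM in the others, a far smaller gap than for Cenpa (382 and 30.6 TPM) or Ccnb2 (514 and 6.52 TPM).

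The 4 remaining genes differed among themselves. Stmn1, which destabilises microtubules, was above 0 in 15 of 17 cycle-rich neutrophils and 5 of 269 others, as narrowly as the mitotic genes. The tubulin genes Tuba1b and Tubb5 were above 0 in 16 of 17 each, and in 39 and 50 of 269. Hmgb2, a chromatin protein, was above 0 in all 17 (mean 1967 TPM) and in 231 of 269 (mean 490 TPM), with a median of 463 TPM where present.

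**Figure D2:**
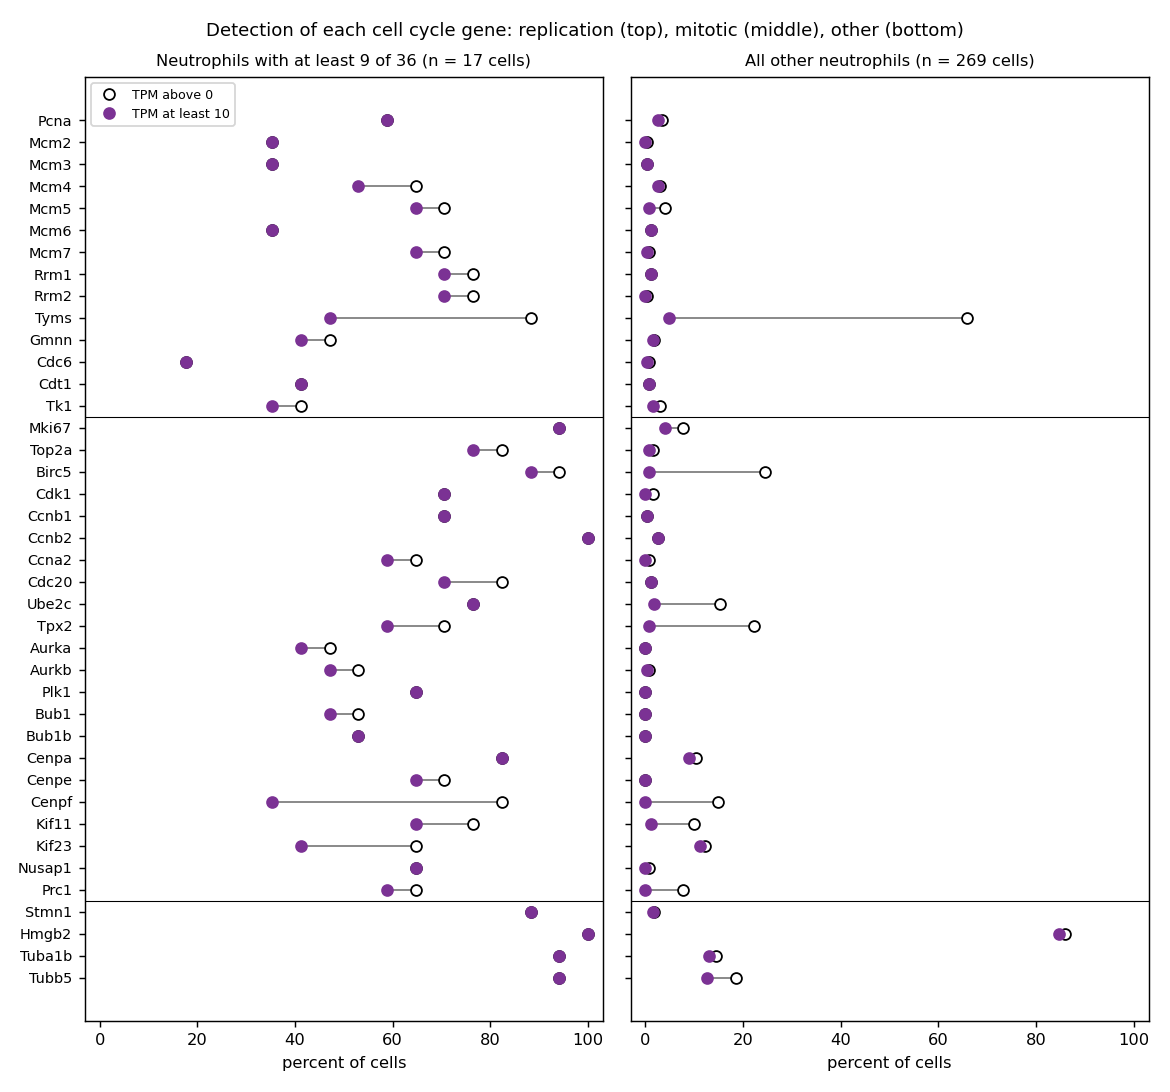
Percent of cells in which each cell cycle gene was above 0 TPM (open circles) or at least 10 TPM (filled circles), in the 17 cycle-rich neutrophils (left) and the 269 others (right). On the right most genes lie near 0%, Tyms, Birc5, Tpx2 and Ube2c lose most of their cells at 10 TPM, and Kif23, Cenpa and Hmgb2 keep theirs.

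Co-detection, measured as phi, was higher within each list than across the lists over all neutrophils. The median phi was 0.43 over the 91 pairs of replication genes, 0.41 over the 231 pairs of mitotic genes and 0.32 over the 308 pairs of a replication with a mitotic gene. Over all pairs of a cell cycle gene with a gene tested it was 0.084. The replicates differed: within the replication list it was 0.35 in replicate 1 and 0.51 in replicate 2, within the mitotic list 0.54 and 0.28, and across the lists 0.40 and 0.18. The order of replication and mitotic pairs thus turned between replicates, and the cross-list pairs had the lowest median in replicate 2 alone. The closest pair was Plk1 with Nusap1 (phi 0.92), with all 11 Plk1-positive cells among the 13 Nusap1-positive cells. Rrm2, a replication gene, had a higher median phi with mitotic genes (0.64) than with replication genes (0.53), and Cdc6 the reverse (0.11 and 0.34). These pairs share cells of unequal depth, and no test was made.

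**Figure D3:**
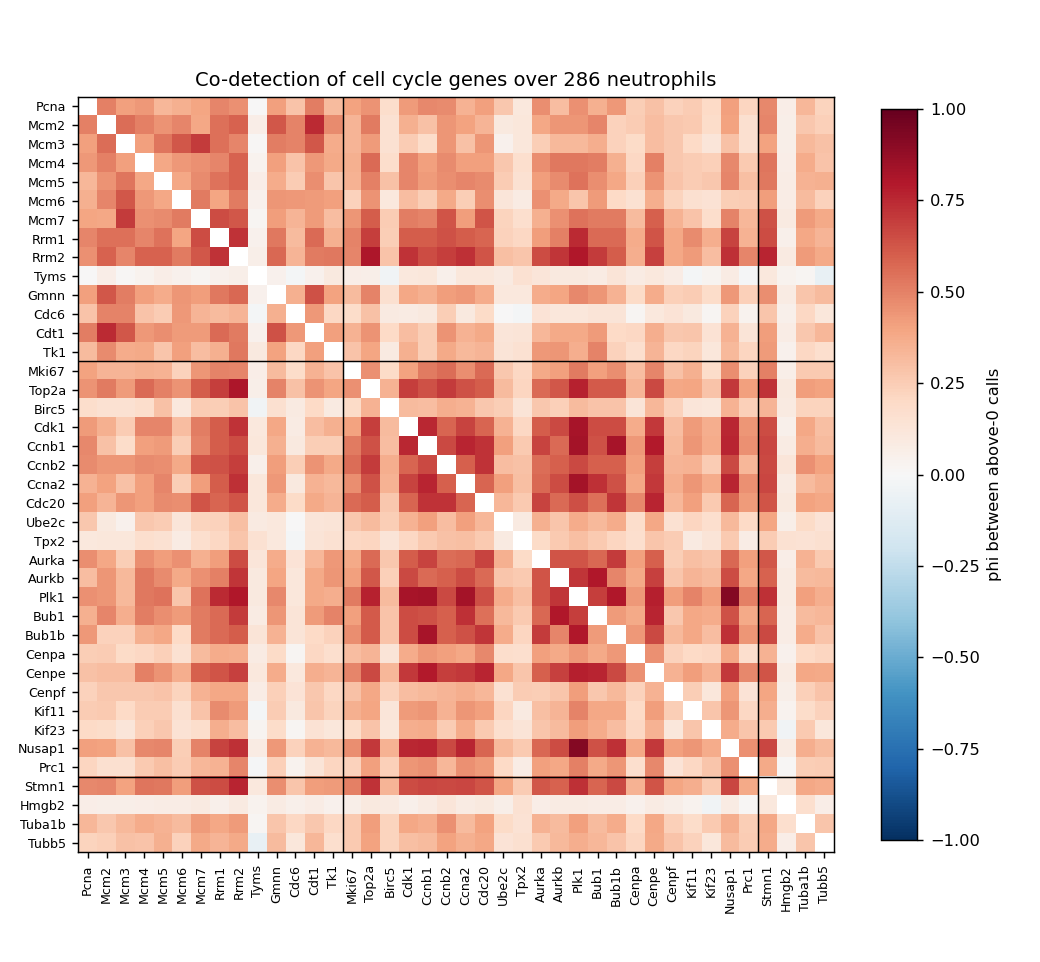
Phi between the above-0 calls of each pair of cell cycle genes over 286 neutrophils, from -1 (blue) to 1 (red), with black lines between replication, mitotic and other genes. Tyms and Hmgb2 are pale against nearly all genes, and the mitotic block has its darkest cells at Plk1, Nusap1, Ccnb1 and Cdk1.

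Cycle-rich neutrophils were almost all Fcnb-positive. Fcnb, a lectin made while specific granules form, was above 0 in 38 neutrophils (19 in each replicate), and 16 of them were cycle-rich, 8 of 19 in replicate 1 and 8 of 19 in replicate 2 (42.1%, exact interval over both 26.3% to 59.2%). Of the 248 neutrophils with Fcnb listed at 0, 1 was cycle-rich (0.403%), a cell of replicate 1 with 67303 TPM of Camp. The other 22 Fcnb-positive cells, which by definition have fewer than 9 of the 36 genes above 0, had a median of 4 in replicate 1 and 2 in replicate 2, against 2 in each for the Fcnb-zero cells that were not cycle-rich. Their median of genes above 0 was 2303.5, against 1531 in those Fcnb-zero cells. Cells are not replicates, so the shares were not tested.

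Camp and Ltf were above 0 in many more neutrophils than Fcnb, 182 and 199 of 286, and a smaller share of their high cells was cycle-rich. Many Ltf values were low, with a median of 4.73 TPM over the neutrophils of replicate 1. Ltf was also above 0 in 16 of the 40 other cells, at up to 9.46 TPM. The lowest Fcnb value above 0 in a neutrophil was 44.71 TPM, so the above-0 counts of Ltf and Fcnb are not alike. Neutrophils were ranked by Camp within each plate and parted into 3 classes of like size: 15 of the 94 cells highest in Camp were cycle-rich (16%; 18.6% and 13.7% by replicate), 2 of the 98 in the middle and 0 of the 94 lowest, which allows up to 3.19%. Ranked by Ltf, the counts were 11 of 94 (11.7%; 9.30% and 13.7%), 6 of 98 and 0 of 94. The high and middle classes of Ltf did not keep their order: the middle held 5 of 45 (11.1%) in replicate 1, above the high class, and 1 of 53 (1.89%) in replicate 2. Within the 94 cells highest in Camp, 14 of 36 Fcnb-positive cells were cycle-rich (38.9%) and 1 of 58 Fcnb-zero cells was (1.72%, exact interval 0.0436% to 9.24%). Within the 94 highest in Ltf the counts were 11 of 31 and 0 of 63, the second of which allows up to 4.76%. The Fcnb-zero cells of these high classes still had a median Camp of 28799 TPM and a median Ltf of 28215 TPM. Over the 286 cells, Spearman's rho of the number of the 36 genes above 0 was 0.36 with Fcnb, 0.18 with Camp and 0.085 with Ltf, beside 0.25 with the number of genes above 0. Fcnb had the rank 21 of 6111 genes and was positive in each plate (0.35, 0.41, 0.29 and 0.41), while Ltf was -0.082 in plate 3. By replicate, rho was 0.38 and 0.35 for Fcnb, 0.25 and 0.10 for Camp, and 0.16 and -0.0011 for Ltf. With genes counted at 10 TPM or more, it was 0.38 for Fcnb, 0.061 for Camp and -0.00030 for Ltf.

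**Figure D4:**
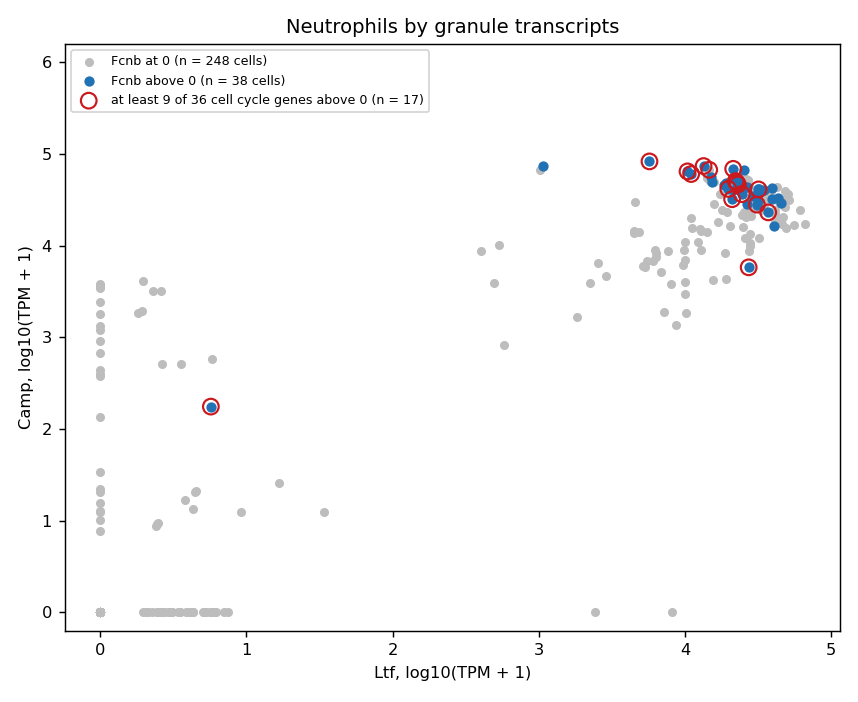
Ltf (x axis) and Camp (y axis), as log10(TPM + 1), in 286 neutrophils; blue points have Fcnb above 0, grey points have it at 0, and red rings mark the 17 cycle-rich cells. All rings but 1 surround blue points, and all but 1 lie in the upper right, where many grey points have no ring.

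The cell outside that corner stands apart and touches several results. It belongs to replicate 1, had 32 of the 36 genes above 0, and was rich in the azurophil granule transcripts Elane (50794 TPM), Prtn3 (37928 TPM) and Mpo (31987 TPM). Its Camp was 175 TPM, its Ltf 4.73 TPM and its S100 sum 12512.4 TPM, the lowest of the neutrophils. Of the other 16 cycle-rich cells, the highest Elane value was 1059 TPM, and Mpo was listed at 0 in all of them. All 17 had at least 3 of 11 neutrophil markers above 0, but S100a8 and S100a9, which define the class, are among these 11. So had 11 of the 12 cycle-rich other cells and 25 of the 28 remaining other cells, so this count does not part the classes. None of the 17 had 3 or more of the 7 monocyte, 7 B cell or 5 measured T or NK cell markers. No doublet caller was run.

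The cell cycle genes were then tested between Fcnb-positive and Fcnb-zero neutrophils, a split that uses none of them. TPM was averaged over the cells of each class in each replicate, and the averages were compared on the log2(mean TPM + 1) scale with limma and Benjamini-Hochberg adjustment over all 6111 genes tested (adjusted p under 0.05). Fcnb-positive cells had higher averages for 349 of these genes (5.71%) and lower averages for 759 (12.4%). Of the 40 cell cycle genes, 23 had enough signal to be tested, and 21 of them were higher and 0 lower, with a median log2 change of 4.49 beside -0.23 over all genes tested. A gene at 0 in most cells passes the filter only through the cells where it is high. These counts thus describe the 23 and not the 40, and give no support of their own. The median of 38 positive cells' genes above 0 was 2425.5 against 1532 in the Fcnb-zero cells, and its part was not tested.

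The mitotic genes Cdc20, Ube2c and Ccnb2 had the largest changes. Cdc20, the activator of the anaphase-promoting complex, averaged 226 TPM in Fcnb-positive cells and was listed at 0 in Fcnb-zero cells of replicate 1; in replicate 2 the averages were 195 and 0.995 TPM (log2 change 7.22, SE 0.77, limma adjusted p = 9.72e-05). Ube2c, the ubiquitin-conjugating enzyme of the same complex, averaged 669 and 9.68 TPM in replicate 1 and 278 and 1.30 TPM in replicate 2 (6.45, SE 0.53, adjusted p = 1.59e-05). Ccnb2 averaged 173 and 6.02 TPM, and 342 and 0.261 TPM (6.36, adjusted p = 0.000861). In all of these the Fcnb-positive average was higher in both replicates and all 4 plates. Birc5 rose by 6.08, Top2a by 5.46, Prc1 (a microtubule bundler of the spindle midzone) by 5.43, Cdk1 by 4.84 and Mki67 by 4.49, all past the threshold. The other mitotic genes that rose were Tpx2 (4.31), Kif11 (2.86), Cenpf (2.80) and Cenpa (2.44). Outside the cycle-rich cells, Cdc20, Ccnb2, Top2a and Cdk1 were above 0 in only 3, 7, 4 and 4 of 269 neutrophils. Such genes entered the fit only through the cells where they are high, so their adjusted p gives no support of its own. Kif23 did not pass (log2 change -0.68, adjusted p = 0.582): it averaged 51.2 TPM in Fcnb-positive and 31.3 TPM in Fcnb-zero cells of replicate 1 but 9.34 TPM against 41.9 TPM in replicate 2, so the replicates went opposite ways.

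Of the replication genes 6 were tested and 5 rose. Mcm5 averaged 61.6 TPM in Fcnb-positive and 1.55 TPM in Fcnb-zero cells of replicate 1; in replicate 2 the averages were 216 and 0.0115 TPM (log2 change 6.18, SE 0.95, adjusted p = 0.00175). Tk1 (thymidine kinase) rose by 5.58, Rrm1 by 4.20, Pcna by 4.10 and Mcm4 by 2.81, the last in 3 of 4 plates. Pcna averaged 59.1 and 4.45 TPM in replicate 1 and 37.7 and 0.449 TPM in replicate 2. Tyms had a log2 change of 2.01 and did not pass (adjusted p = 0.147). The other 8 replication genes had too little signal to be tested. All 4 remaining genes rose: Stmn1 by 4.74, Tuba1b by 4.58, Tubb5 by 4.30 and Hmgb2 by 1.16. The limit given for Cdc20 holds here too. Mcm5, Tk1, Rrm1, Pcna and Stmn1 were above 0 in 11, 8, 3, 9 and 5 of the 269 neutrophils that were not cycle-rich.

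**Figure D5:**
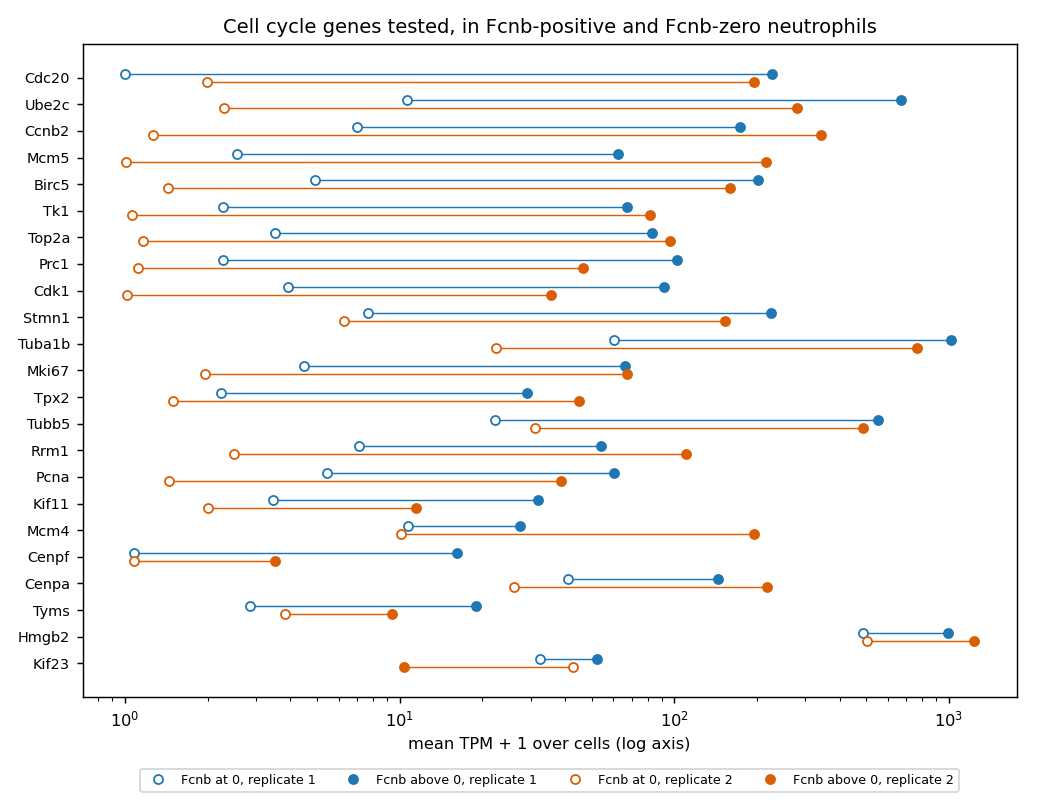
Mean TPM + 1 (log axis) of the 23 cell cycle genes tested, in Fcnb-positive (filled) and Fcnb-zero (open) neutrophils of replicate 1 (blue) and replicate 2 (orange), ordered by log2 change. Filled points lie to the right for all genes but Kif23, whose replicate 2 values run the other way, and the gap of Hmgb2 is small.

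The count of 21 depended on which genes entered the fit and on other settings. With the same 23 genes tested it was 15 with a pseudocount of 0.1, 18 with one of 10 and 19 with plates in place of replicates. Without a filter on low values limma called 0 of 40 (33 at an unadjusted p under 0.05), with the stricter filter 9 of 10 tested, and in cells with at least 1500 genes 7 of 36 (35 at an unadjusted p under 0.05). Without the Elane-rich cell it was 17 of 22.

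Cell cycle genes outside the 40 were tested in the same fit, in which 5.71% of all genes tested were higher and 12.4% lower. Of 58 further mitotic genes 26 were tested, 18 rose and 2 fell. Cdca3, a trigger of mitotic entry, rose by 6.27, the chromosome motor Kif22 by 5.73 and the condensin subunit Ncapd2 by 5.28. The genes that fell were the securin gene Pttg1 (-2.36) and Lmnb1, encoding lamin B1 (-1.95), which was above 0 in 202 of the 248 Fcnb-zero cells. Of 44 further replication genes 10 were tested and 4 rose: Asf1b (5.37), Pold3 (4.03), Dnmt1 (3.0) and Slbp (2.05). Ncapd2, Cdca3, Kif22 and Asf1b were above 0 in 17, 16, 15 and 15 neutrophils. Such genes entered the fit only through the cells where they are high, so these counts give no support of their own. Of 28 genes of G1 cyclins, kinases and inhibitors 12 were tested. Cdk2 (1.68) and Fzr1 (2.46) rose, and the antiproliferative genes Btg1 (-2.67) and Btg2 (-3.93) fell. Counts this small were not tested against the shares over all genes. Btg2 averaged 1417 TPM without Fcnb and 112 TPM with it in the first pair of plates, and 1754 against 93.5 TPM in the other pair. The same split had Camp higher by 2.22 and Ltf by 1.35.

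Between the 94 cells highest and the 94 lowest in Ltf, 6 of the 24 cell cycle genes tested were higher and 0 lower, against 126 of 6209 genes higher (2.03%) and 231 lower (3.72%). In the low class Ccnb2 and Cdc20 were listed at 0 in both replicates, while in the high class Ccnb2 averaged 57.4 and 117 TPM and Cdc20 77.1 and 65.0 TPM. Stmn1 (5.90), Ube2c (5.68), Top2a (4.74) and Tuba1b (3.03) were also higher (limma, adjusted p from 0.0348 to 0.0495). Between the same classes of Camp, 17 of 31 tested were higher and 0 lower, against 343 of 6332 genes higher (5.42%) and 415 lower (6.55%). They were the replication genes Mcm5 (4.47), Mcm7 (4.96), Rrm2 and Tk1, the mitotic genes Top2a (5.0), Birc5 (5.73), Cdk1, Ccnb1, Ccnb2 (6.31), Ccna2 (5.31), Cdc20, Ube2c (6.41), Aurkb, Plk1, Nusap1 and Prc1 (4.71), and Tuba1b (3.57). Rrm2 averaged 90.1 and 87.5 TPM in the high class and was listed at 0 in the low class of both replicates, as were Tk1, Ccnb1, Cdc20, Aurkb and Plk1. As with Fcnb, such genes entered these fits only through the class where they are high, so the counts of 6 and 17 describe the genes tested and give no support of their own. The comparisons by Fcnb, Ltf and Camp reuse the same neutrophils and are not independent.

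The 38 Fcnb-positive cells held 16 of the 17 cycle-rich neutrophils. With them left out, 11 cell cycle genes still had the signal to be tested, another set than the 24 and 31, and 0 passed in either comparison (limma; 0 at an unadjusted p under 0.05 for Ltf and 1 for Camp). Since the cycle-rich cells leave with the Fcnb-positive ones, this says nothing further about Ltf or Camp. The count for Ltf was also 0 with a pseudocount of 0.1 (17 at an unadjusted p under 0.05), 1 of 22 in cells with at least 1500 genes and 15 of 24 with averages of log values, so it is less firm than the count for Fcnb. Without a filter on low values limma called 0 in both (29 at an unadjusted p under 0.05 in each). Kif23 ran against the rest: it averaged 18.5 TPM in the high and 50.9 TPM in the low class of Ltf in replicate 1, and 8.69 and 65.9 TPM in replicate 2 (log2 change -2.10, adjusted p = 0.140). For Camp it was -2.07 (adjusted p = 0.120), with the same sign in all 4 plates in both comparisons, and it was called lower in both when 2 classes of like size replaced the 3.

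The share of cycle-rich cells was higher among the other cells than among neutrophils in replicate 1, and replicate 2 does not settle the order. In replicate 2 the exact intervals overlapped, 1.46% to 36.4% for 2 of 17 other cells and 2.25% to 9.92% for 8 of 155 neutrophils. Both of these other cells were on plate 3. The share with both lists on was higher in other cells on plates 1, 2 and 3. On plate 4 it was lower, with 0 of 9 other cells against 4 of 78 neutrophils. Of the 40 other cells, 12 were cycle-rich (30.0%), 10 of 23 in replicate 1 (43.5%) and 2 of 17 in replicate 2 (11.8%), so the replicates differed widely. They had 9 to 35 of the 36 genes above 0 (median 29). Of the 12, 11 had 3 or more of 7 monocyte markers above 0, as had 18 of the 28 remaining other cells. Ly6c2, a marker of classical monocytes, was above 0 in 10 of the 12. It was also above 0 in 17 of 17 cycle-rich and 213 of 269 other neutrophils, so alone it does not mark monocytes here. Among the 26 other cells with Ly6c2 10 were cycle-rich (38.5%; 8 of 14 and 2 of 12), and among the 14 without it 2 were. One of these, in replicate 1, had the B cell gene Cd79a at 4532 TPM with 10 replication genes and 1 mitotic gene. The other, also in replicate 1, had Csf1r at 4032 TPM with 6 replication and 3 mitotic genes. Azurophil granule transcripts were present in some: Elane was above 0 in 4 of the 12, Prtn3 in 6 and Mpo in 1, and 2 cells had 3 or more of 4 early granulocyte precursor markers. The highest values were in a Ly6c2-positive cell of replicate 1 with 30 of the 36 genes above 0, with 16034 TPM of Elane, 2887.5 TPM of Prtn3 and 2163 TPM of Mpo. Camp was listed at 0 in all 12, and Fcnb was above 0 in 4, at up to 925 TPM.

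Averaged over all cells of a class, 13 of 36 cell cycle genes tested were lower in neutrophils than in other cells and 0 higher, against 1025 of 6980 genes lower (14.7%) and 406 higher (5.82%). Here too a gene at 0 in most neutrophils passes the filter only with the other cells, where it is higher. Outside the cycle-rich cells, Mcm3 and Rrm2 were each above 0 in 1 of 269 neutrophils. The counts thus describe the 36 tested, and for such genes the adjusted p gives no support of its own. Pcna had the largest difference: it averaged 12.4 TPM in neutrophils and 208 TPM in other cells of replicate 1; in replicate 2 the averages were 5.02 and 186 TPM (log2 change -4.46, SE 0.65, limma adjusted p = 0.000431). The replication genes Mcm3 (-3.64), Gmnn (-2.41) and Rrm2 (-1.86) were also lower. So were the mitotic genes Nusap1 (-3.09), Aurkb (-3.03), Birc5 (-2.29), Ccna2 (-2.22), Ccnb2 (-2.19) and Ube2c (-1.88). Stmn1 (-3.22), Tubb5 (-3.05) and Tuba1b (-2.89) were lower as well, and Tuba1b averaged 199 against 1791 TPM in replicate 1 and 112 against 692 TPM in replicate 2. Mki67 (-1.71), Top2a (-1.94) and Mcm5 (-1.62) did not pass, with adjusted p of 0.136, 0.115 and 0.204. Hmgb2 had a log2 change of -0.05 (adjusted p = 0.931). Pcna, Tuba1b and Tubb5 had the same sign in all 4 plates, and the other 10 in 3 of 4. With plates in place of replicates only 3 passed, without the replicate block 6, and without a filter on low values 0 (16 at an unadjusted p under 0.05). The other cells had a median of 3027.5 genes above 0 against 1604.5 in neutrophils, and its part was not tested.

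The cycle-rich cells of both classes were set side by side for genes chosen after their values were seen. Pcna averaged 106 TPM in the 17 cycle-rich neutrophils and 545 TPM in the 12 cycle-rich other cells, and Stmn1 433 and 1046 TPM. Ccnb2 (514 and 384 TPM), Ube2c (1117 and 1044 TPM) and Mki67 (144 and 147 TPM) were closer. These means over few cells were not tested.

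Genes outside the 40 that followed the number of cell cycle genes most closely over the 286 neutrophils were Ncapd2 (Spearman's rho 0.42), Anp32e (0.42), Cdca3 (0.41), Snrpg (0.40), Kif22 (0.39), Racgap1 (0.39), Nudc (0.39), Cks1b (0.38), Asf1b (0.37) and Knstrn (0.37), where the median gene had 0.058. Ncapd2 was above 0 in 17 neutrophils, which were exactly the 17 cycle-rich ones, at a mean of 87.0 TPM. Cdca3 and Kif22 were above 0 in 16 and 15 neutrophils, all cycle-rich. Anp32e, a histone chaperone, and Snrpg, a spliceosome subunit, were above 0 in 25 and 37, 16 of them cycle-rich in each case. The points share cells of unequal depth, so these values describe this table only.

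Finally, genes of no cell cycle list were compared between the 17 cycle-rich and the 269 other neutrophils. Cycle-rich cells were higher in 31 of the 6040 genes tested (0.513%) and lower in 140 (2.32%) (limma, adjusted p under 0.05), all with the same sign in the 4 plates. A gene at 0 in most cells of a class can pass the filter only through the class where it is high. For such genes the counts and the signs by plate give no support of their own. Fcnb was higher by 4.16 (SE 0.31, adjusted p = 0.00679), with 2439 against 116 TPM in replicate 1 and 1644 against 107 TPM in replicate 2. Camp was higher by 1.95 (adjusted p = 0.0021), with 45198 against 12543 TPM and 45714 against 11065 TPM, and Ltf by 0.84 (adjusted p = 0.0290), with 17158 against 10694 TPM and 22752 against 11411 TPM. Of the 7 specific granule genes listed, Camp, Ltf, Ngp (1.36), Lcn2 (0.49) and Chi3l3 (2.41) rose, and Cybb and Lyz2 did not pass. Cebpe, a transcription factor of this stage, had 2.57 and did not pass (adjusted p = 0.0594). The largest rises were in Banf1 (6.32), a chromatin-binding protein, the histone gene Hist1h2ao (5.98), Ptma (5.78), Anp32e (5.38), Ms4a3 (4.61), a marker of granulocyte and monocyte precursors, Lsm5 (4.45), Stra13 (4.30), Dek (4.13) and Snrpe (4.11). Several of these were above 0 in few of the 269 cells, such as Banf1 in 5 and Snrpe in 6, beside 13 and 12 of the 17. They entered the fit only with the cycle-rich cells. Histone genes have near-identical copies, so the value of Hist1h2ao is uncertain.

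Transcripts of late and mature neutrophils were near 0 in the cycle-rich cells. Il1b, the precursor of interleukin-1 beta, averaged 0.664 against 6592 TPM in replicate 1 and was listed at 0 against 7506 TPM in replicate 2, with 2 of 17 and 167 of 269 cells above 0. Mmp8, the neutrophil collagenase, averaged 0.897 against 7169 TPM and was listed at 0 against 7488 TPM, with 2 of 17 and 244 of 269 cells above 0. Cxcl2, Fpr1, Arg2, Tpm4 and Pla2g7 were listed at 0 in all 17, which allows a share of up to 17.6%. In the 269 other neutrophils they averaged 1432 and 824, 983 and 935, 734 and 551, 527 and 588, and 520 and 559 TPM in replicates 1 and 2. Retnlg averaged 122 against 23792 TPM in replicate 1 and was listed at 0 against 21948 TPM in replicate 2. Ccl6 (-10.05) and Clec4d (-9.53) were also lower. Of 4 late granule genes Mmp8, Mmp9 and Retnlg fell and Itgam did not pass. Among genes listed for mature cells, Cxcr2 fell by 5.82 and Csf3r by 3.53.

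The number of genes called in this last comparison was unstable. Without the Elane-rich cell, 115 genes were higher and 500 lower. With averages of log values 1189 were higher and 286 lower, which turns the balance of directions from 18.1% to 80.6% higher among the genes called. Without a filter on low values none of 12903 passed in limma, with 626 higher and 881 lower at an unadjusted p under 0.05.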

How the data were processed

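Transcript levels of single SmartSeq2 cells were used as the authors deposited them, in TPM per gene and cell. RSEM and the build mm10 were used, per the submitters' processing notes; their versions, the aligner and the annotation were not stated in what was used here. Of 384 labelled cells, 326 have a column and 58 were not analysed here. Nothing was filtered from the cells, and no doublet caller was run.

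The members and lists were chosen with earlier results of these data known. Cells were classed by S100a8 plus S100a9 TPM (10000), by Fcnb above 0, by rank of Ltf or Camp within a plate (3 classes of like size), or by 9 of 36 members above 0. Mean TPM per class and replicate was compared as log2(mean TPM + 1) in limma 3.58.1 (R 4.3.3; trend, robust, replicate block; both classes come from the same replicate), with Benjamini-Hochberg adjustment at 0.05 over genes averaging 1 TPM or more that were above 0 in 5% of cells or more. With 1 residual degree of freedom, each fit depends on limma's variance prior. The limma fit was tried on simulated data in which each gene's values were shuffled on their own over the neutrophils of a replicate. Such data do not test genes that are high in the same cells, as the cell cycle genes are. Fold changes on this scale understate the change of low genes. Named are the up to 12 largest changes per fit, Camp, Ltf, Fcnb, Mki67, Top2a, Pcna, Mcm5, Tuba1b and Stmn1, the 10 largest rises and falls of the last fit, and the 10 highest rho. Gene positions are from GENCODE (GRCm38) and promoters from RefSeq (GRCm38.p6).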

Additional observations from a re-analysis of the deposited data

How the results depend on the processing

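With 2 replicates, leaving one out leaves no residual degrees of freedom, so those are values with no test. Of the tested single-gene results under the other alternatives, 1427 stayed on their side of the threshold, 322 lost it, 129 gained it and 18 changed sign. Without one replicate, 284 values kept their sign and 6 did not. All 24 changes of sign were in members that had not passed. By Fcnb, Kif23 was 0.49 with averages of log values, 0.23 in cells with at least 1500 genes and -2.05 to 0.69 without one replicate. By Ltf, Cenpa was -0.89 in cells with at least 1500 genes, -0.59 to 0.83 without one replicate and -2.53 without Fcnb-positive cells, Mcm4 was -0.0069 to 3.04 without one replicate, and Tyms was -0.23 with averages of log values and -0.69 without Fcnb-positive cells. By Camp, Cenpa was -2.70 and Tyms -0.53 without Fcnb-positive cells, Tyms -0.0064 with averages of log values, and Mcm4 -0.42 in cells with at least 1500 genes. In neutrophils against other cells, Hmgb2 was 0.0049 with plates, 0.56 with averages of log values, 0.018 in cells with at least 1500 genes, -0.48 to 0.39 without one replicate and 0.023 with an S100 limit of 50000; Kif23 was 0.40 with plates, -2.31 to 1.48 without one replicate and 1.78 with an S100 limit of 1000; Mcm4 was 0.38 with plates and -2.18 to 1.69 without one replicate; and Tk1 was 0.28 with an S100 limit of 1000. The balance of higher and lower calls in cycle-rich neutrophils turned with averages of log values. The share of neutrophils with both lists on was 2.88% at 6 genes per list and 8.41% in cells with at least 1500 genes, and 3.87% to 6.87% without one replicate. The median phi of mitotic pairs was 0.63 at 10 TPM. Without the replicate block the Fcnb count was 18. The cause of each change was not tested, except that other genes enter a fit when the filter or the cells change: leaving out Fcnb-positive cells removes most cycle-rich cells and leaves another set of genes.

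Members called higher by Fcnb numbered 0 without a filter on low values, 9 with the stricter filter (mean TPM of 5, 10% of cells) and 7 in cells with at least 1500 genes; their median log2 change was 2.07 with averages of log values and 2.67 with a pseudocount of 10, and 4.49 to 4.91 without one replicate. For Ltf the count was 13 with plates, 11 without the replicate block, 15 with averages of log values, 0 with a pseudocount of 0.1, 12 with one of 10, 0 without a filter, 1 in cells with at least 1500 genes, 2 with an S100 limit of 50000, 14 with 2 classes and 0 without Fcnb-positive cells. Its median was 0.69 with averages of log values, 5.10 and 1.55 with pseudocounts of 0.1 and 10, 3.12 with the stricter filter, 2.93 in cells with at least 1500 genes, 3.10 with an S100 limit of 1000, 3.26 with 2 classes, 0.57 without Fcnb-positive cells, and 3.84 to 4.41 without one replicate. For Camp the count was 26 with averages of log values, 0 without a filter, 10 with the stricter filter, 7 in cells with at least 1500 genes, 6 with an S100 limit of 1000 and 0 without Fcnb-positive cells. Its median was 0.88 with averages of log values, 7.01 and 1.86 with pseudocounts of 0.1 and 10, 3.56 with the stricter filter, 2.83 in cells with at least 1500 genes, 3.26 with an S100 limit of 1000, 2.97 with 2 classes, 0.56 without Fcnb-positive cells, and 3.69 to 4.62 without one replicate.

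Members called lower in neutrophils numbered 3 with plates, 6 without the replicate block, 27 with averages of log values, 20 with a pseudocount of 10, 0 without a filter, 8 with the stricter filter, 4 in cells with at least 1500 genes and 7 with an S100 limit of 1000; the median was -1.19 with averages of log values and -2.43 to -1.43 without one replicate. Genes outside the lists called higher and lower in cycle-rich neutrophils numbered 161 and 694 with plates, 111 and 434 without the replicate block, 1189 and 286 with averages of log values, 7 and 23 with a pseudocount of 0.1, 262 and 650 with one of 10, 0 and 0 without a filter, 119 and 267 in cells with at least 1500 genes, 345 and 758 with an S100 limit of 1000 and 127 and 308 at 6 of 36 genes. Without the Elane-rich cell, an alternative chosen after seeing the data, they were 115 and 500, and with the stricter filter 278 were lower.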
